A study of Mus musculus with 18 samples.

Results

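The genes described here are those that build cholesterol, with their regulators and a group of lipid synthesis genes that share them. They were chosen by name, from a list of 32 symbols, and 31 of the 32 were found among 19938 genes. Acat2 could not be matched to a transcript cluster with 1 gene symbol. The 31 comprised 17 enzymes of the sterol pathway (6 of the mevalonate arm, 3 that make squalene and lanosterol and 8 that turn lanosterol into cholesterol), 5 regulators of the SREBP pathway, the sterol carrier gene Stard4, the LXR target Mylip and 7 genes of fatty acid and glycerolipid synthesis.

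Cholesterol is made from acetyl-CoA through mevalonate, isoprenoids, squalene and lanosterol. Its enzymes are switched on together by SREBP2, a transcription factor held in the endoplasmic reticulum by INSIG proteins while sterols are plentiful and carried by SCAP to the Golgi for cleavage when they run short. SREBP1 drives fatty acid synthesis in many tissues, and LXR receptors respond to oxysterols and oppose sterol build-up. Myoblasts that fuse into myotubes remodel their membranes, and both processes draw on these lipids.

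The series holds 18 Affymetrix gene arrays of C2C12 cells, a mouse myoblast line, in 6 groups of 3. Every group carried shRNAs against its own TAF3, the PHD finger subunit of TFIID, and a murine TAF3 in its place. After etoposide, a topoisomerase II inhibitor that breaks DNA, given at 10 µM for 7 hours, the groups were KK-TAF3 sh-PIP4K2B, WT-TAF3 sh-PIP4K2B and WT-TAF3 shX, and the same 3 genotypes were measured after differentiation. KK-TAF3 is the mutant that no longer binds phosphoinositides, and PIP4K2B is a nuclear kinase that removes the phosphoinositide PI5P. The labels give 2 days of differentiation and the series' design text 3. The cells were stable lines under selection. The study calls the replicates biological, but the labels do not say whether they came from separate lines, so the p-values cover only the spread between arrays. The cells were grown in medium with 10% fetal calf serum, and differentiation was in 2% horse serum, so treatment and serum cannot be told apart. No group was both untreated and undifferentiated, so a difference between the treatments cannot be assigned to etoposide or to differentiation. In such bulk RNA fewer cells of a type and less RNA per cell cannot be told apart either. The arrays have no read depth, and their number limits the precision.

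The labels were checked against the targeted gene and against marker genes. Pip4k2b was lower on each of the 12 sh-PIP4K2B arrays (9.46 to 10.10, log2 signal) than on any of the 6 shX arrays (10.48 to 10.75). Taf3 lay between 8.58 and 8.86 on all arrays, and the array does not separate the cells' own transcript from the introduced one. Of 8 muscle markers, 4 lay above the median gene (7.97) in each etoposide group and 6 or 7 in the differentiated groups, with Des, the muscle intermediate filament, at 12.73 to 13.28. Of the markers of other cells, 2 of 8 for fat, with Pparg at 9.06 to 9.41, and 1 of 6 for macrophages, Cd14 at 8.08 to 8.71, lay above it, and none of 3 for bone. All 31 lipid genes were brighter than that median gene, with means over the 18 arrays between 8.31 (Pmvk) and 13.64 (Scd1). Array medians over all clusters lay between 7.25 and 7.46.

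The promoters of the 5 genes that passed the threshold within a treatment are shown because SREBP2 acts through a short sterol regulatory element beside a CCAAT box, the site of NF-Y. The stretches are from RefSeq (GRCm38.p6), 5′ to 3′ on the strand of the gene, and run 25 bases past the outermost matches where the 300-base window allows. Capitals mark the CCAAT box, which is spelled ATTGG where it lies on the opposite strand, and in Hmgcs1 also the element core, searched as TCACNCCAC.
Hmgcs1, chr13:119690101-119690390, plus strand: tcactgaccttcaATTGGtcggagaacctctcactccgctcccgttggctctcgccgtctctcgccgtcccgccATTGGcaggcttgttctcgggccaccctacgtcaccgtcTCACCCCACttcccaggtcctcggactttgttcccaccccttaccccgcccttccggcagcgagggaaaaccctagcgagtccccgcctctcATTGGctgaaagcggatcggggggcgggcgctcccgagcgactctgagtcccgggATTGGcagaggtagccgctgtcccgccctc
Idi1, chr13:8885536-8885621, plus strand: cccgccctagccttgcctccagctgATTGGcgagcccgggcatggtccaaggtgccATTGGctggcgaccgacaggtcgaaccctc
Lss, chr10:76531518-76531572, plus strand: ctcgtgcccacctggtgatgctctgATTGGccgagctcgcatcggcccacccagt
Msmo1, chr8:64733604-64733763, minus strand: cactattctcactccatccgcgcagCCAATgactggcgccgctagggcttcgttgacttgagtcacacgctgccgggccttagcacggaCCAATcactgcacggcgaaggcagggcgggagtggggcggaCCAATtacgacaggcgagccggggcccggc
Insig1, chr5:28071171-28071225, plus strand: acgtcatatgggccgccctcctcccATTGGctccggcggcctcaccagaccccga

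Promoter windows of 250 bases before to 50 bases after the start were given for 25 of the 31 genes, and not for Fdps, Fdft1, Sqle, Stard4, Scd1 and Scd2. A CCAAT on either strand was found in 21 of the 25, against 41.1% of all genes with a window and 37.4% of all 32851 windows. It lay within all 14 windows of sterol enzymes. The element core was found in Hmgcs1 alone of the 25, and in 1.24% of all windows. These are matches of letters and no measure of binding, and a site that differs from the core by a base would be missed.

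In differentiated cells, depletion of PIP4K2B went with higher levels of the sterol enzymes. Hmgcs1, Idi1, Lss and Msmo1, which stand at the entry, the middle and the late part of the pathway, rose by 1.41- to 1.59-fold. All 17 enzymes lay above 0, and the 13 others had smaller differences that did not pass the threshold. None of the regulators and fatty acid genes passed. The threshold was a Benjamini-Hochberg adjusted p under 0.05 in limma over all 19938 genes with a change above 1.4-fold (0.49 on the log2 scale); 0.682% of all genes passed it upward and 0.376% downward, against 4 and 0 of the 31 genes.

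Hmgcs1 encodes the HMG-CoA synthase that commits acetyl units to the pathway (transcript cluster 10412466). Its log2 signal was 11.63, 11.71 and 11.60 in WT-TAF3 sh-PIP4K2B cells, against 11.07, 11.16 and 11.22 in WT-TAF3 shX cells. The lowest depleted array stood well above the highest shX array, and the difference was 0.49 (SE 0.07, adjusted p = 0.000202), just past the fold limit.

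Idi1, the isomerase that makes the activated isoprene unit, had a signal of 10.84, 10.77 and 10.73 in WT-TAF3 sh-PIP4K2B cells, against 10.00, 10.15 and 10.19 in WT-TAF3 shX cells. The groups did not overlap, and the difference of 0.67 (SE 0.15, adjusted p = 0.0188) was the largest of the 31. A second cluster annotated to Idi1 differed by 0.66.

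Lss closes the squalene chain into lanosterol, the first sterol. Its signal was 10.19, 10.28 and 10.10 in WT-TAF3 sh-PIP4K2B cells, against 9.56, 9.58 and 9.67 in WT-TAF3 shX cells, with no overlap and a difference of 0.59 (SE 0.09, adjusted p = 0.000752). Msmo1, the oxygenase that starts the removal of methyl groups from the sterol ring, had 11.29, 11.35 and 11.32 in WT-TAF3 sh-PIP4K2B cells, against 10.73, 10.82 and 10.78 in WT-TAF3 shX cells. These groups too were apart, by 0.54 (SE 0.11, adjusted p = 0.00627).

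**Figure D1:**
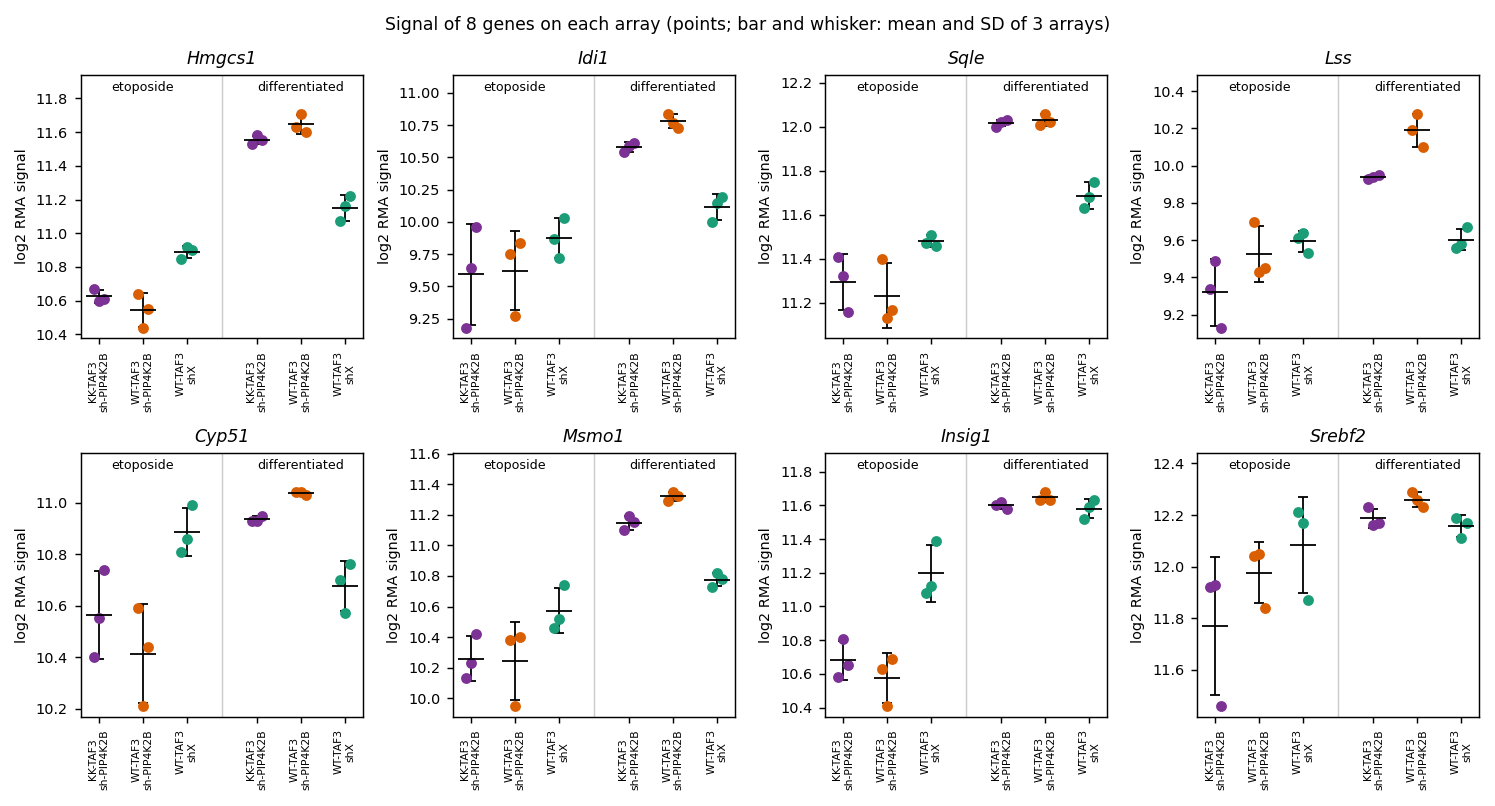
Log2 RMA signal (vertical axes) of 8 genes on each array, by genotype (horizontal axes), with etoposide on the left and differentiated cells on the right of each panel; points are arrays, and bar and whisker the mean and SD of 3. In differentiated cells Hmgcs1, Idi1, Lss and Msmo1 were higher in WT-TAF3 sh-PIP4K2B than in WT-TAF3 shX cells on every array, and Insig1 after etoposide was lower on every sh-PIP4K2B array (10.41 to 10.81) than on the shX arrays (11.08 to 11.39).

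The smaller differences had the same sign along the whole pathway. Without the fold limit 10 of the 17 enzymes, and none of the 14 other genes, had an adjusted p under 0.05 upward, against 3.21% of all genes. Besides the 4 above these were Fdps, which makes farnesyl diphosphate (0.28), Fdft1 and Sqle, which make and oxidise squalene (0.32 and 0.34), Cyp51, the lanosterol demethylase (0.36), and Nsdhl and Hsd17b7, which act after Msmo1 (0.31 and 0.41). Depleted and shX arrays did not overlap for 16 of the 17 enzymes, and 23 of the 31 genes had every depleted array higher, against 21.8% of all genes. The median difference was 0.31 over the enzymes and -0.02 over all genes. The smallest difference was that of Pmvk, the kinase that acts on phosphomevalonate, at 0.09, and its arrays overlapped.

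None of the 5 regulators passed with or without the fold limit. Insig1, a direct SREBP target that retains SCAP in the endoplasmic reticulum, had 11.63, 11.68 and 11.63 in WT-TAF3 sh-PIP4K2B cells, against 11.52, 11.59 and 11.63 in WT-TAF3 shX cells. The groups were set apart by less than the printed decimals, and the difference of 0.07 had a 95% confidence interval of -0.11 to 0.25. Srebf2 differed by 0.11 (interval -0.12 to 0.33), Srebf1 by 0.08, Insig2 by 0.08 and Scap by -0.12.

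Among the 7 fatty acid and glycerolipid genes none passed the threshold, and the median difference was 0.08. Acaca, the carboxylase that makes malonyl-CoA, differed by 0.24 and its dimmer second cluster by 0.52. Fasn, the synthase that extends the chain, differed by 0.08. The related desaturase genes Scd1 and Scd2, whose signals may be shared in part, differed by 0.11 and 0.12. Elovl6, which lengthens palmitate, differed by 0.04 and Lpin1, a phosphatidate phosphatase, by 0.06. Stard4, which carries sterol between membranes, differed by 0.18, and Mylip, the ubiquitin ligase that lowers lipoprotein receptors, by -0.12.

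Array brightness and muscle markers moved with these groups. Array medians were 7.25 to 7.33 in WT-TAF3 sh-PIP4K2B cells and 7.35 to 7.41 in WT-TAF3 shX cells. With the array median as a covariate none of the 31 genes passed the threshold, and all 17 enzymes stayed above 0. The differences were then 0.42 for Hmgcs1 (adjusted p = 0.00382) and 0.41 for Lss (adjusted p = 0.0129), below the fold limit, and 0.61 for Idi1 (adjusted p = 0.171) and 0.50 for Msmo1 (adjusted p = 0.0699). The muscle list averaged 9.71 to 9.72 on the depleted arrays and 9.42 to 9.45 on the shX arrays, with 1 of 8 markers past the threshold (Tnnt3, a sarcomere troponin, 0.83), and its part in the sterol result was not tested. Leaving out WT-TAF3 sh-PIP4K2B replicate 2 or WT-TAF3 shX replicate 1 brought the 4 genes to 2 (Lss and Msmo1).

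**Figure D2:**
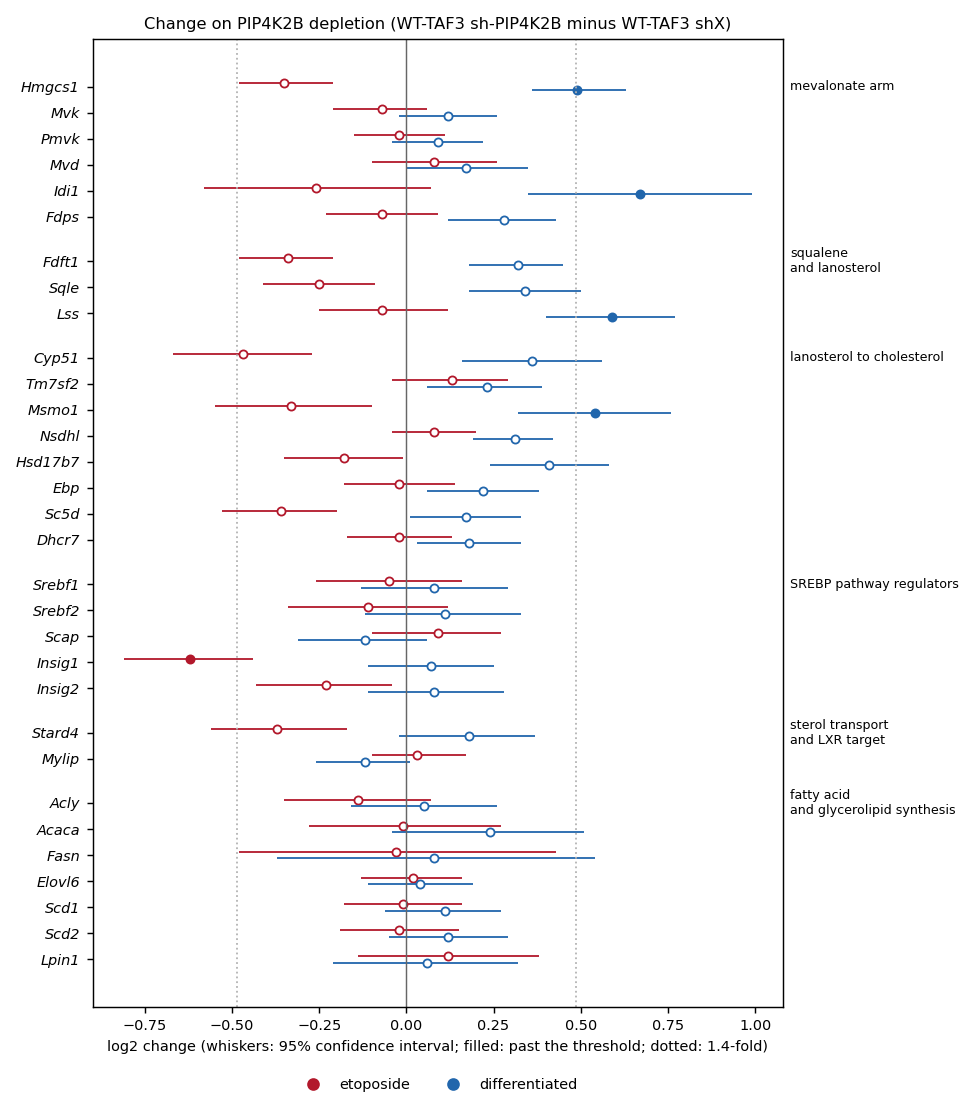
Log2 change on PIP4K2B depletion (the depleted WT-TAF3 line minus the shX line, horizontal axis) for the 31 genes (vertical axis, grouped by role) after etoposide and in differentiated cells, with 95% confidence intervals; filled points passed the threshold and dotted lines mark 1.4-fold. In differentiated cells 17 of 17 enzymes lay above 0, and after etoposide 14 of 17 lay below 0.

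After etoposide the depleted cells had lower, not higher, signals for part of the same pathway. Insig1 fell, and it was the only one of the 31 genes past the threshold, against 0.547% of all genes downward and 0.321% upward. Its signal was 10.63, 10.41 and 10.69 in WT-TAF3 sh-PIP4K2B cells, against 11.08, 11.12 and 11.39 in WT-TAF3 shX cells. All 3 depleted arrays lay below all 3 shX arrays, by a difference of -0.62 (SE 0.09, adjusted p = 0.000348, 0.650-fold).

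Of the 17 enzymes 14 lay below 0, with smaller differences, and 11 with the array median as a covariate, where Insig1 kept its call (-0.60). Without the fold limit 6 of the 31 genes had an adjusted p under 0.05 downward, against 2.11% of all genes: Insig1, Cyp51 (-0.47), Stard4 (-0.37), Sc5d, the sterol desaturase of a late step (-0.36), Hmgcs1 (-0.35) and Fdft1 (-0.34). For 8 of the 31 genes every depleted array lay lower, against 8.02% of all genes. Hmgcs1 had 10.64, 10.44 and 10.55 in WT-TAF3 sh-PIP4K2B cells, against 10.85, 10.92 and 10.90 in WT-TAF3 shX cells, again with no overlap but in the opposite direction to the differentiated arrays. Cyp51 had 10.59, 10.21 and 10.44 in the depleted cells, against 10.81, 10.86 and 10.99 in the shX cells.

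Lss, Idi1 and Msmo1 had no adjusted p under 0.05 here. Lss had 9.70, 9.43 and 9.45 in WT-TAF3 sh-PIP4K2B cells and 9.61, 9.64 and 9.53 in WT-TAF3 shX cells, so the groups overlapped and differed by -0.07 (interval -0.25 to 0.12). Among Lss, Idi1 and Msmo1, Idi1 varied most between replicates, with 9.75, 9.27 and 9.84 in the depleted cells and 9.87, 9.72 and 10.03 in the shX cells. Msmo1 had 10.38, 9.95 and 10.40 in the depleted cells, against 10.46, 10.52 and 10.74 in the shX cells, a difference of -0.33 (adjusted p = 0.117). The median difference was -0.07 over the 17 enzymes and 0.02 over all genes. None of the 7 fatty acid genes passed the threshold, with differences between -0.14 (Acly, which splits citrate into acetyl-CoA) and 0.12 (Lpin1).

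Whether depletion acted differently under the 2 treatments was tested as an interaction, the depletion effect after etoposide minus that in differentiated cells. Of the 31 genes, 11 were past the threshold and all 11 were lower, against 2.07% of all genes lower and 1.95% higher. They were 9 of the 17 enzymes, Insig1 and Stard4, and none of the 7 fatty acid genes. All 17 enzymes lay below 0, with a median of -0.53 against 0.04 over all genes.

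In the mevalonate arm the interaction was -0.84 (SE 0.09, adjusted p = 5.52e-05) for Hmgcs1 and -0.93 (SE 0.22, adjusted p = 0.0262) for Idi1. For Hmgcs1 it joined an effect of -0.35 after etoposide and 0.49 in differentiated cells, and for Idi1 -0.26 and 0.67. All 3 genes of the squalene and lanosterol steps passed, Fdft1 at -0.66, Sqle at -0.59 and Lss at -0.66. Lss joined -0.07 after etoposide and 0.59 in differentiated cells, and Fdft1 -0.34 after etoposide and 0.32 in differentiated cells.

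Beyond lanosterol 4 of 8 enzymes passed: Cyp51 at -0.83 (SE 0.13, adjusted p = 0.00224), Msmo1 at -0.87 (SE 0.15, adjusted p = 0.00406), Hsd17b7 at -0.59 and Sc5d at -0.53. Tm7sf2 (-0.10), Dhcr7 (-0.21), which completes cholesterol, Nsdhl (-0.22) and Ebp (-0.24) did not pass. The interaction of Insig1 was -0.69 (SE 0.12, adjusted p = 0.00552) and joined -0.62 after etoposide and 0.07 in differentiated cells. That of Stard4 was -0.54 (SE 0.13, adjusted p = 0.0297). Srebf2 (-0.22), Srebf1 (-0.14), Scap (0.21) and Mylip (0.15) did not pass.

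The level of the 17 enzymes on each array shows the same crossing. Averaged over the enzymes and taken relative to each gene's mean over the 18 arrays, it was -0.11, -0.31 and -0.12 after etoposide in WT-TAF3 sh-PIP4K2B cells, against -0.08, -0.04 and 0.02 in WT-TAF3 shX cells. In differentiated cells it was 0.26, 0.29 and 0.24 in WT-TAF3 sh-PIP4K2B cells, against -0.09, -0.05 and -0.04 in WT-TAF3 shX cells. The depleted arrays were thus lower than the shX arrays under one treatment and higher under the other, with no overlap in either.

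The etoposide array at -0.31, WT-TAF3 sh-PIP4K2B replicate 2, also had the highest array median, 7.46. Without it 7 of the 11 genes remained past the threshold, and Hsd17b7, Idi1, Sc5d and Stard4 did not. With the array median as a covariate 2 remained, Hmgcs1 (-0.73) and Fdft1 (-0.64), with all 17 enzymes below 0. Of the 9 others, Cyp51 had -0.74 (adjusted p = 0.0535), Msmo1 -0.80 (adjusted p = 0.0708), Idi1 -0.84 (adjusted p = 0.298) and Insig1 -0.63 (adjusted p = 0.0948), and Sqle, Lss, Hsd17b7, Sc5d and Stard4 lay at -0.42 to -0.38. Of the 8 muscle markers 2 were also lower in this interaction, Tnnt3 among them (-0.99), and their part in the sterol result was not tested.

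**Figure D3:**
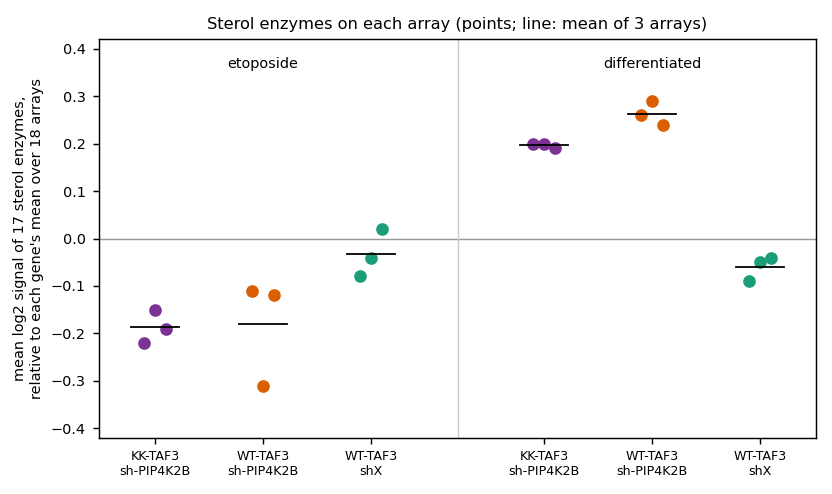
Mean log2 signal of the 17 sterol enzymes on each array relative to each gene's mean over 18 arrays (vertical axis), by genotype and treatment (horizontal axis); points are arrays and lines the mean of 3. The sh-PIP4K2B arrays lay between -0.31 and -0.11 after etoposide and between 0.19 and 0.29 in differentiated cells, while the shX arrays lay between -0.09 and 0.02 under both treatments.

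The KK mutation of TAF3 was compared with WT-TAF3 in cells that both carried sh-PIP4K2B. Their remaining Pip4k2b signal was not equal: in differentiated cells it was 9.83 to 9.90 in KK-TAF3 cells and 9.46 to 9.64 in WT-TAF3 cells, with no overlap (0.31, interval 0.10 to 0.52, adjusted p = 0.255), so the mutation and the degree of depletion cannot be told apart. Taf3 was also lower on every KK-TAF3 array than on every WT-TAF3 sh-PIP4K2B array of the same treatment. It differed by -0.17 in differentiated cells (adjusted p = 0.456) and -0.13 after etoposide (adjusted p = 0.368). The mutation and the Taf3 signal cannot be told apart either. In differentiated cells none of the 31 genes passed the threshold, also with an unadjusted p under 0.05 and the same fold limit, against 0.301% of all genes higher and 0.216% lower. Below 0 were 14 of the 17 enzymes and 23 of the 31 genes, and 10 of the 31 had every KK-TAF3 array lower, against 8.07% of all genes. None of the 31 had every KK-TAF3 array higher, against 2570 of 19938 genes. The median difference was -0.07 over the enzymes and 0.02 over all genes. Lss differed most, with 9.93, 9.94 and 9.95 in KK-TAF3 cells, against 10.19, 10.28 and 10.10 in WT-TAF3 cells. Those arrays did not overlap, and the difference was -0.25 (interval -0.44 to -0.06, adjusted p = 0.354). For Hmgcs1 the difference was -0.09 (interval -0.23 to 0.04) and for Idi1 -0.20 (interval -0.52 to 0.12), so falls of up to 1.4-fold in Idi1 were within its interval.

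In the same arrays 4 of 8 muscle markers fell in KK-TAF3 cells, among them Myog, the myogenic factor myogenin (-1.02, SE 0.09, adjusted p = 2.19e-06), Acta1, skeletal actin (-1.18), and Myh3, an embryonic myosin (-0.93). The muscle list averaged 9.18 to 9.26 on the KK-TAF3 arrays and 9.71 to 9.72 on the WT-TAF3 arrays, and the enzymes 0.19 to 0.20 and 0.24 to 0.29 on the relative scale. Whether the lists differed from each other was not tested.

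After etoposide KK-TAF3 and WT-TAF3 cells likewise had no member past the threshold, also at an unadjusted p under 0.05 with the fold limit, against 0.341% of all genes higher and 0.0652% lower. The differences ran between -0.21 (Lss) and 0.22 (Insig2, the second INSIG), with a median of 0.04 over the enzymes. All 7 fatty acid genes were below 0, at -0.20 to -0.03, and none passed. The KK effect did not differ between treatments for any of the 31 genes at the threshold, against 0.135% of all genes higher and 0.015% lower; none passed at an unadjusted p under 0.05 with the fold limit, and the largest value was that of Cyp51, 0.25 (interval -0.03 to 0.53).

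KK-TAF3 sh-PIP4K2B cells were also set against WT-TAF3 shX cells, the same shX arrays as above. In differentiated cells all 17 enzymes lay above 0, with a median of 0.25 against -0.00 over all genes. None of the 31 genes passed the threshold, against 0.823% of all genes higher and 0.436% lower, nor with an unadjusted p and the fold limit. Without the fold limit 8 had an adjusted p under 0.05 upward, against 4.92% of all genes. Hmgcs1 had 11.53, 11.58 and 11.55 in KK-TAF3 sh-PIP4K2B cells, against 11.07, 11.16 and 11.22 in WT-TAF3 shX cells, a difference of 0.40 (SE 0.07, adjusted p = 0.00137) with no overlap. Idi1 differed by 0.47, Msmo1 by 0.37 and Lss by 0.34. Array medians were 7.27 to 7.35 in the KK-TAF3 cells and 7.35 to 7.41 in the shX cells. With the array median as a covariate all 17 enzymes stayed above 0 and none of the 31 genes passed the threshold. The median difference over the 31 genes was then 0.11. Of 8 muscle markers 3 were lower in the KK-TAF3 cells, and their part was not tested.

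After etoposide Insig1 was lower in KK-TAF3 sh-PIP4K2B cells as well, with 10.58, 10.81 and 10.65, against 11.08, 11.12 and 11.39 in WT-TAF3 shX cells. It fell by 0.52 on the log2 scale (SE 0.09, adjusted p = 0.00152) and was the only one of the 31 past the threshold, against 0.361% of all genes lower and 0.792% higher. The call was lost without WT-TAF3 shX replicate 3 or without KK-TAF3 sh-PIP4K2B replicate 1, at differences of -0.58 to -0.42 over the arrays left out in turn. Hmgcs1 differed by -0.26 and Fdft1 by -0.28, and the median over the enzymes was -0.16 against 0.02 over all genes.

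Etoposide-treated and differentiated cells were compared within each genotype. Without an untreated group, a gene said to fall or rise here was lower or higher after etoposide than after differentiation. Which of the treatments moved it cannot be told. In both sh-PIP4K2B lines much of the pathway was lower after etoposide than after differentiation, and in shX cells Mylip alone passed the threshold. Hmgcs1 (-0.26, adjusted p = 0.00613) and Insig1 (-0.38, adjusted p = 0.00316) were lower in shX cells by less than the fold limit. Of the 31 genes 12 fell in KK-TAF3 sh-PIP4K2B cells, against 4.81% of all genes lower and 3.52% higher. In WT-TAF3 sh-PIP4K2B cells 14 fell, against 6.3% lower and 3.64% higher. In WT-TAF3 shX cells 1 fell, against 2.92% lower and 4.71% higher. None rose in any genotype. For the depleted WT-TAF3 line the difference from shX cells is the interaction above, and for the KK-TAF3 line it was not tested.

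The genes that fell in both depleted lines were Hmgcs1, Idi1, Fdft1, Sqle, Lss, Msmo1, Sc5d, Insig1, Stard4, Acaca and Mylip. Hmgcs1 was lower by 0.92 on the log2 scale in KK-TAF3 sh-PIP4K2B cells, by 1.10 in WT-TAF3 sh-PIP4K2B cells and by 0.26 in WT-TAF3 shX cells, and Idi1 by 0.98, 1.16 and 0.24 in the same order. Msmo1 differed by -0.89, -1.08 and -0.21 and Insig1 by -0.92, -1.07 and -0.38. The shX differences of these 4 genes had the same sign but were below the fold limit. The call of Stard4 in KK-TAF3 sh-PIP4K2B cells (-0.49) lay at the fold limit and was lost without 4 of the 6 arrays left out singly, each of its replicates 1 and 2, and with the array median as a covariate. Fasn fell in KK-TAF3 sh-PIP4K2B cells, and Cyp51, Hsd17b7 and Insig2 in WT-TAF3 sh-PIP4K2B cells.

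The other 8 enzymes did not pass in any genotype. Tm7sf2, a sterol reductase, lay at 0.17, 0.21 and 0.31 in KK-TAF3 sh-PIP4K2B, WT-TAF3 sh-PIP4K2B and WT-TAF3 shX cells, Pmvk at 0.15, 0.17 and 0.28, and Ebp, a sterol isomerase, at 0.13, 0.04 and 0.28. Mvk, the first mevalonate kinase, and Mvd, the decarboxylase that follows Pmvk, differed by -0.10 to 0.16. Nsdhl lay at -0.32, -0.29 and -0.06, Fdps at -0.19, -0.24 and 0.10, and Dhcr7 at -0.20, -0.10 and 0.11 in the same order. The medians over the 17 enzymes were -0.37, -0.56 and 0.03 in the same order, beside 0.03, 0.07 and -0.05 over all genes.

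Mylip fell in all 3 genotypes. It had 9.75, 9.77 and 9.69 after etoposide and 10.45, 10.42 and 10.40 after differentiation in KK-TAF3 sh-PIP4K2B cells. In WT-TAF3 sh-PIP4K2B cells it had 9.74, 9.66 and 9.77 after etoposide and 10.26, 10.40 and 10.31 after differentiation. In WT-TAF3 shX cells it had 9.63, 9.78 and 9.66 after etoposide and 10.42, 10.51 and 10.40 after differentiation. Its differences were -0.69, -0.60 and -0.75 (SE 0.06 each), and the depletion effect did not differ between treatments at the threshold (0.15, interval -0.04 to 0.35).

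**Figure D4:**
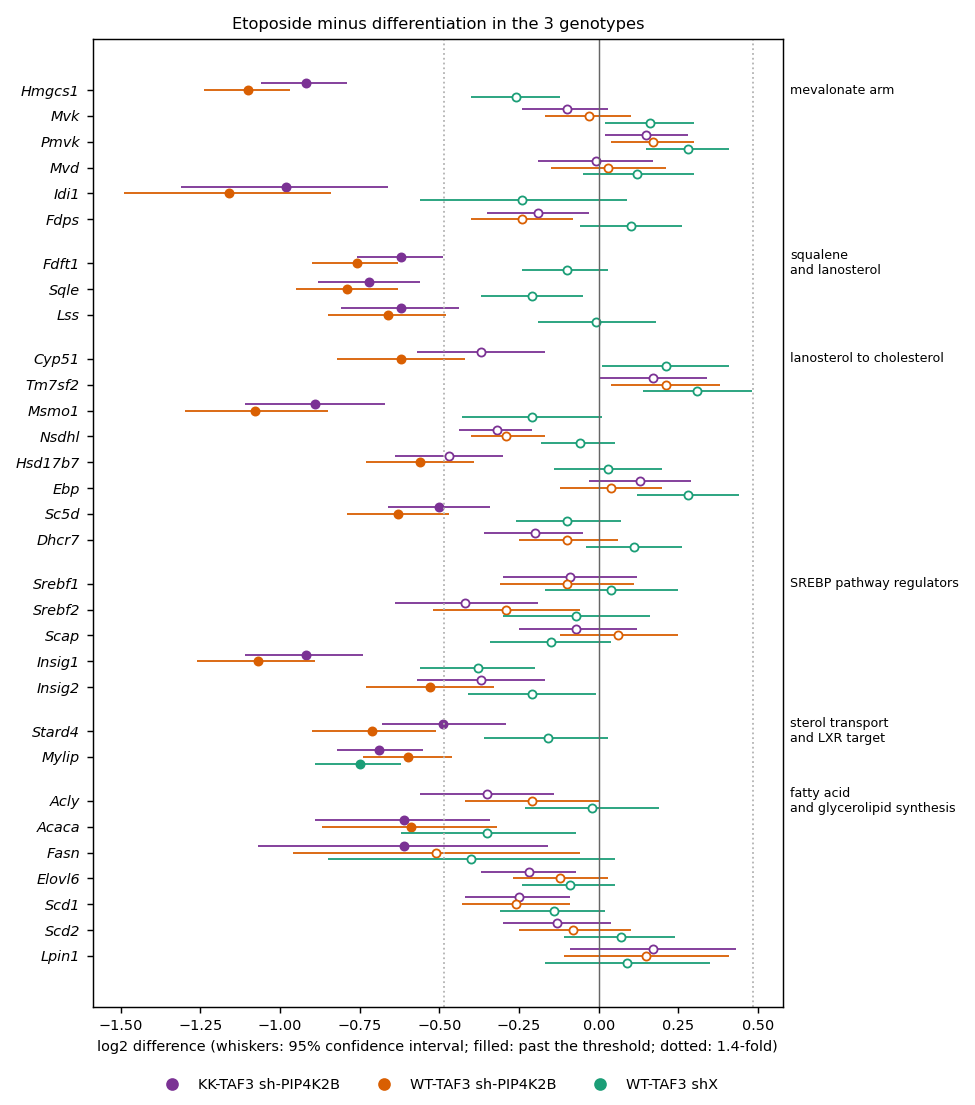
Log2 difference between etoposide-treated and differentiated cells (horizontal axis) for the 31 genes (vertical axis, grouped by role) in the 3 genotypes, with 95% confidence intervals; filled points passed the threshold and dotted lines mark 1.4-fold. Hmgcs1 lay at -0.92, -1.10 and -0.26 in KK-TAF3 sh-PIP4K2B, WT-TAF3 sh-PIP4K2B and WT-TAF3 shX cells, and Mylip at -0.69, -0.60 and -0.75.

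The fatty acid genes were uneven among the etoposide arrays. Fasn had 11.71, 11.48 and 10.73 in KK-TAF3 sh-PIP4K2B cells, 11.79, 11.63 and 11.10 in WT-TAF3 sh-PIP4K2B cells and 11.85, 11.70 and 11.04 in WT-TAF3 shX cells, so that the array numbered 3 was lowest in every genotype. Acaca and Acly were lowest on the same arrays, as was Srebf2, with 11.46, 11.84 and 11.87 there. The fall of Fasn in KK-TAF3 sh-PIP4K2B cells (-0.61, adjusted p = 0.0435) was lost without 4 of the 6 arrays left out singly, its own etoposide replicate 3 and each of its differentiated replicates. With all 3 arrays numbered 3 left out, a fit added after the data were seen, 10 genes fell in KK-TAF3 sh-PIP4K2B cells (Acaca and Fasn did not), 14 in WT-TAF3 sh-PIP4K2B cells and 1 in shX cells, and the interaction kept 10 of its 11 genes, all but Stard4.

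Around the pathway few genes of the other lipid lists passed the threshold within a treatment. No gene passed the threshold in the 6 comparisons within a treatment among 9 measured genes of the isoprenoid branches, 6 of SREBP processing and sterol-driven degradation, 20 of fatty acid supply, elongation and desaturation, 19 of glycerolipid synthesis and lipolysis and 12 of fatty acid oxidation. Of 13 genes of sterol transport and storage 1 did, and of 7 genes of LXR and sterol efflux 1 did, where between 0.0652% and 0.823% of all genes passed in one direction of a comparison. The isoprenoid genes had small differences: on depletion 8 of 9 lay below 0 after etoposide (median -0.08) and 9 of 9 above 0 in differentiated cells (median 0.18), where 7 of 9 had every depleted array higher, against 21.8% of all genes. Their interaction was below 0 in 9 of 9, with a median of -0.23. In KK-TAF3 sh-PIP4K2B cells 9 of 9 lay above those of shX cells under both treatments (medians 0.08 after etoposide and 0.24 in differentiated cells).

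The first was Gramd1b, which encodes a protein that moves cholesterol out of the plasma membrane to the endoplasmic reticulum. After etoposide its signal was 7.60, 7.51 and 7.22 in WT-TAF3 sh-PIP4K2B cells, against 8.12, 8.04 and 7.92 in WT-TAF3 shX cells, and it fell by 0.58 on the log2 scale (SE 0.10, adjusted p = 0.00216). In differentiated cells it was 7.94, 8.04 and 7.99 in WT-TAF3 sh-PIP4K2B cells, against 8.65, 8.41 and 8.52 in WT-TAF3 shX cells, and it fell by 0.54 (SE 0.10, adjusted p = 0.00441). Gramd1b was thus lower on every WT-TAF3 sh-PIP4K2B array than on any shX array of the same treatment. Its interaction was -0.04 (adjusted p = 0.852). In KK-TAF3 sh-PIP4K2B cells it had 7.84, 8.13 and 7.78 after etoposide, which overlapped the shX arrays (-0.11, adjusted p = 0.806). In differentiated cells that difference was -0.33 (adjusted p = 0.0492), below the fold limit. After etoposide KK-TAF3 cells were above WT-TAF3 sh-PIP4K2B cells by 0.47 (adjusted p = 0.0273), also below the fold limit.

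Ch25h makes an oxysterol that shuts down SREBP processing. After etoposide it had 7.84, 7.98 and 7.96 in KK-TAF3 sh-PIP4K2B cells, against 7.36, 7.21 and 7.31 in WT-TAF3 sh-PIP4K2B cells. The difference was 0.63 (SE 0.12, adjusted p = 0.013). The shX arrays lay between them, at 7.58, 7.45 and 7.58. Against these KK-TAF3 sh-PIP4K2B cells differed by 0.38 (adjusted p = 0.108) and WT-TAF3 sh-PIP4K2B cells by -0.25 (adjusted p = 0.31). In differentiated cells Ch25h differed by 0.14 between the sh-PIP4K2B lines (adjusted p = 0.977). Its signal was dim, at 6.47 to 7.98 over the 18 arrays.

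Between treatments genes of these lists passed the threshold too, and those named here were chosen after their values were seen. In WT-TAF3 sh-PIP4K2B cells 1 of 9 isoprenoid, 1 of 6 SREBP processing and 2 of 13 transport genes fell. There 2 of 20 fatty acid supply genes and 1 of 12 oxidation genes also fell, and 0 of 7 LXR genes passed. Of 19 glycerolipid genes 3 rose and 1 fell. Over all genes 6.3% fell and 3.64% rose in this comparison. Rnf139, a ubiquitin ligase of the endoplasmic reticulum, was lower after etoposide than after differentiation in all genotypes. It differed by -0.65 in KK-TAF3 sh-PIP4K2B cells, -0.98 in WT-TAF3 sh-PIP4K2B cells and -0.56 in WT-TAF3 shX cells. Cpt1a, which admits fatty acids to mitochondria, had -0.58, -0.61 and -0.57, and Lpin3, a phosphatidate phosphatase, had 0.70, 0.70 and 0.91 in the same order. Acsl4, which activates polyunsaturated fatty acids, was the only gene of these 7 lists with an interaction past the threshold (-0.65, SE 0.12, adjusted p = 0.00695), from -0.31 after etoposide and 0.34 in differentiated cells.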

How the data were processed

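C2C12 RNA on 18 arrays (6 groups of 3) was analysed from 1 table. Its values are log2 signals that the authors obtained by RMA (background correction, quantile normalization and a summary over the probes of a transcript cluster) in Expression Console from Affymetrix, whose version is not given in the sources used here. RMA assumes like signal distributions and compresses small differences. That the control WT-TAF3 cells carried shX is taken from the study's figures, since the labels name no control shRNA. Gene names come from the platform annotation: of 35556 clusters 21789 had 1 symbol, 1621 several and 12146 none listed, and only the first were used. The supplement names a later chip generation than that annotation. The brightest cluster stood for each of 999 genes with several, which gave 19938 genes.

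Tests used limma 3.58.1 (R 4.3.3) and 1 model of the 6 group means (12 residual and 6.05 prior degrees of freedom), at an adjusted p under 0.05 with 1.4-fold; the script was tested on simulated data. SE is the standard error, and intervals are 95% intervals of that fit. Members and gene lists were chosen with earlier results of these data known. Named were all members, up to 4 genes past the threshold within a treatment from each other list, and Pip4k2b and Taf3. The alternatives tried were no fold limit, an unadjusted p, only the groups compared, a trended robust prior, bright genes only, every cluster, the mean of a gene's clusters, quantile normalization within treatments, median centring, the array median as a covariate, leaving out single arrays, and blocking on the replicate number. Leaving out the 3 etoposide arrays numbered 3 was added after the data were seen. Same-numbered WT-TAF3 sh-PIP4K2B and WT-TAF3 shX arrays deviated together after etoposide (correlations of 0.435, 0.332 and 0.559, from the data and not the labels), and the blocked fit changed no call of that comparison. Python 3.11.15 with matplotlib 3.10.9, numpy 2.4.6 and pandas 2.3.3 made tables and figures.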

Additional observations from a re-analysis of the deposited data

Results flagged for a closer look

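For 11 genes the effect of PIP4K2B depletion differed between the treatments by the test of the interaction itself (limma, adjusted over 19938 genes), as the effect after etoposide minus that in differentiated cells. The log2 values were -0.84 for Hmgcs1, -0.93 for Idi1, -0.66 for Fdft1, -0.59 for Sqle, -0.66 for Lss, -0.83 for Cyp51, -0.87 for Msmo1, -0.59 for Hsd17b7, -0.53 for Sc5d, -0.69 for Insig1 and -0.54 for Stard4. Hmgcs1, Fdft1, Sqle, Lss, Cyp51, Msmo1 and Insig1 passed in each of the 12 fits that left out 1 array, whereas Idi1 and Stard4 were lost in 6 of 12, Sc5d in 2 and Hsd17b7 in 1.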

How the results depend on the processing

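No value changed sign under any alternative where it was called; of the single gene values 3906 kept their side of the threshold, 71 lost it and 28 gained it. Without the fold limit 10 genes passed for depletion in differentiated cells (all higher, against 3.21% of all genes). After etoposide 6 passed for depletion (all lower, against 2.11%). KK-TAF3 sh-PIP4K2B cells set against shX cells had 8 higher in differentiated cells (against 4.92%) and 3 lower after etoposide (against 249 of 19938 genes). For etoposide against differentiation 21 were lower in KK-TAF3 sh-PIP4K2B cells, where 2506 of all 19938 genes were lower and 2561 higher. In shX cells 6 passed, 3 higher and 3 lower, where 2901 of all genes were higher and 1708 lower. With the array median as a covariate depletion in differentiated cells had 0 genes, with the 4 called genes still at 0.41 to 0.61, and the interaction 2, with the 11 at -0.84 to -0.38; quantile normalization within treatments gave 2 for depletion in differentiated cells. Median centring gave 3 for KK-TAF3 sh-PIP4K2B cells set against shX cells in differentiated cells and 2 for depletion after etoposide. KK-TAF3 sh-PIP4K2B cells set against shX cells after etoposide had 0 when only those groups were fitted, and 0 without the 3 etoposide arrays numbered 3, an alternative added after the data were seen. The cause was not tested. Leaving out each array in turn gave 2 to 4 genes for depletion in differentiated cells, 1 to 2 after etoposide (2 without WT-TAF3 shX replicate 1 or WT-TAF3 sh-PIP4K2B replicate 1, with Cyp51), 0 to 1 for KK-TAF3 sh-PIP4K2B cells set against shX cells after etoposide and 7 to 11 for the interaction. It gave 10 to 13 for etoposide against differentiation in KK-TAF3 sh-PIP4K2B cells, 12 to 15 in WT-TAF3 sh-PIP4K2B cells, 1 in shX cells and 0 elsewhere.

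Same-numbered arrays had correlated deviations in part. After etoposide 6 of 9 same-numbered pairs and 4 of 18 others were over 0.1 (-0.291 to 0.593 and -0.486 to 0.496), and in differentiated cells 2 of 9 and 7 of 18. Only for depletion after etoposide were all 3 pairs over 0.1. The main fit paired no arrays, and the blocked fit used the replicate numbers within both treatments. A replicate block gave 4 genes for depletion in differentiated cells, 1 after etoposide, 11 for the interaction, 12, 15 and 1 for etoposide against differentiation in KK-TAF3 sh-PIP4K2B, WT-TAF3 sh-PIP4K2B and shX cells, 0 and 1 for KK-TAF3 sh-PIP4K2B cells set against shX cells in differentiated and etoposide-treated cells, and 0 for KK-TAF3 against WT-TAF3.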
